A study of Mus musculus with 10 samples.

Results

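The mouse mitochondrial genome carries 37 annotated genes, and all of them were found in the deposited gene table by their chromosome label, MT. They comprise 13 protein-coding genes, 2 ribosomal RNA (rRNA) genes and 22 transfer RNA (tRNA) genes, out of 52550 genes in the table. The rule used no measured value, though earlier results of these data were known when the members and lists were chosen. The cells were MEFs, fibroblasts cultured directly from C57BL/6 mouse embryos, with 5 libraries of female and 5 of male cells. Both sexes shared the strain, embryonic day 14, passage 3 and the culture medium, and the labels name no treatment or modified allele. Total RNA was depleted of rRNA and made into strand-marking libraries that were sequenced on an Illumina instrument. It is not stated whether each library had its own embryo or culture, so a p-value here reflects the spread among libraries, part of which may be technical.

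The mitochondrial genome is a small circle, present in many copies per cell, that is transcribed on both strands into long RNAs covering many genes. These RNAs are cut into single messengers, rRNAs and tRNAs, largely at the tRNAs that lie between the other genes. The coding genes give core subunits of the respiratory chain: complex I (mt-Nd1 to mt-Nd6 and mt-Nd4l), complex III (mt-Cytb), complex IV (mt-Co1, mt-Co2 and mt-Co3) and the ATP synthase, also called complex V (mt-Atp6 and mt-Atp8). The rRNAs, 12S from mt-Rnr1 and 16S from mt-Rnr2, and the tRNAs serve the ribosome that translates those messengers inside the organelle. The plus strand of the reference carries 12 coding genes, both rRNA genes and 14 tRNA genes, and is named here the heavy-strand transcript. The opposite, light-strand transcript carries mt-Nd6 and 8 tRNA genes.

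The genes lie end to end and in places share bases, which bears on how reads can be assigned. The first stretch below is where the end of mt-Atp8 overlaps the start of mt-Atp6 at chrM:7927-7969 on the plus strand, 43 bases read in 2 frames (all positions are in mm10). Its capitals mark the start codon of mt-Atp6 and the stop codon of mt-Atp8. The next is the join of mt-Nd4l and mt-Nd4 at chrM:10147-10193, with the 7 bases held by both genes in capitals. Then come mt-Co1 at chrM:6390-6423 and mt-Nd3 at chrM:9459-9491, each above the matching stretch of a near-identical nuclear pseudogene on the minus strand of chromosome 1, with the base that differs in capitals. Counted from the first base of the mitochondrial gene, the differences from mitochondrial to nuclear base are A1066T in mt-Co1 and T3C in mt-Nd3. They are shown because reads without such a base cannot tell the copies apart.
mt-Atp8 and mt-Atp6 overlap: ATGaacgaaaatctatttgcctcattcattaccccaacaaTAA
mt-Nd4l and mt-Nd4 join: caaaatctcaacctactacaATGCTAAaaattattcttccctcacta
mt-Co1: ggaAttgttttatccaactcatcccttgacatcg
Gm29216: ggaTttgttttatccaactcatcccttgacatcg
mt-Nd3: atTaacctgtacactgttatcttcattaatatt
Gm28438: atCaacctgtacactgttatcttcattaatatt

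The tRNA genes are shown by the members that the results turn on, each in the sense direction with its anticodon in capitals. mt-Ty at chrM:5260-5326 and mt-Tp at chrM:15356-15422, both on the minus strand, carry tyrosine and proline and had the highest levels of the class. mt-Tl2 at chrM:11671-11741, for leucine, was the member whose libraries separated by sex. mt-Td at chrM:6942-7011, for aspartate, had no read in any library, and mt-Tk at chrM:7700-7764, for lysine, had 5 reads in all. The last 3 lie on the plus strand, and all sequences come from the transcript set of GENCODE M21.
mt-Ty: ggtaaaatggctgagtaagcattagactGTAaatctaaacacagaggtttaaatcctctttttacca
mt-Tp: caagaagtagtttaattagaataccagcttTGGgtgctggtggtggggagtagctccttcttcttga
mt-Tl2: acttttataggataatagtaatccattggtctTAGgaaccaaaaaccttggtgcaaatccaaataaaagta
mt-Td: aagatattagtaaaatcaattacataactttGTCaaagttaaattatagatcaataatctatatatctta
mt-Tk: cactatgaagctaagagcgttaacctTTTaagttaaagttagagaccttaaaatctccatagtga

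Each library held between 36295813 and 54643418 reads counted to genes, 450927111 in all. These total gene reads include reads that were not counted as unique, taken here as reads that fit more than 1 place. The sex labels held in every library: Xist, the RNA that coats the inactive X, was at 262 to 383 CPM (counts scaled to the total gene reads of the library) in females and 0.0251 to 0.441 CPM in males. The Y-linked Ddx3y was at 0.0447 to 0.458 CPM in females and 46.5 to 58.8 CPM in males. All 11 fibroblast markers reached 1 CPM, with a summed level of 20760 to 25178 CPM in females and 20714 to 25630 CPM in males. The 2 haemoglobin genes used as red cell markers summed to at most 0.0706 CPM in females and 0.0754 CPM in males, with Hba-a1 at 0 throughout. Markers of macrophages, epithelium, endothelium, muscle and nerve summed to at most 100.1 CPM for any list in any library, and no marker of any list was called between the sexes.

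Mitochondrial genes took a few percent of all gene reads, and the share was alike in its mean between the sexes. The 5 female libraries held 4.05, 3.61, 3.796, 4.16 and 3.42% of their reads on the 37 genes, and the 5 male libraries 3.35, 3.74, 4.31, 3.61 and 4.06%. The female range lay inside the male range. The mean was 3.81% ± 0.307 in females, against 3.82% ± 0.378 for males (SD, n = 5 each), a difference of -0.00676 percentage points (two-sided exact permutation p = 0.968). At this depth counting error was small beside that spread: the 95% Wilson interval of the lowest library was 3.35 to 3.36%. Such intervals and limits cover counting error alone, and reads were not tied to single molecules by identifiers. In bulk samples, fewer cells of a kind and less RNA per cell cannot be told apart, and the same holds for fewer genome copies and less RNA per copy.

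Split by class, most mitochondrial reads were rRNA. After depletion with a kit that targets mitochondrial as well as cytosolic rRNA, the 2 rRNA genes still held 72.0 to 77.5% of the mitochondrial reads. Their share of all gene reads was 2.91% ± 0.249 in females, against 2.86% ± 0.339 in males (SD, n = 5 each; exact permutation p = 0.762). The share of mitochondrial reads on rRNA genes was 76.6, 77.0, 75.02, 77.5 and 76.4% in female libraries and 72.0, 74.1, 76.3, 75.6 and 75.7% in male libraries. The sexes overlapped, with male replicates 1 and 2 below every female library. The means were 76.5% ± 0.928 in females and 74.7% ± 1.76 in males (SD, n = 5; exact permutation p = 0.0714, adjusted over 6 measures 0.214). Leaving out female replicate 3 or male replicate 3 moved the unadjusted p to 0.0238 or 0.0317. Over the 10 single omissions this p ranged from 0.0238 to 0.159.

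The 13 coding genes took about 1 read in 100. Female libraries had 0.946, 0.829, 0.947, 0.936 and 0.804% of gene reads on them, and male libraries 0.938, 0.969, 1.02, 0.878 and 0.985%. Female replicates 2 and 5 lay below all males, and the other 3 females lay among the males. The means were 0.892% ± 0.0700 in females and 0.958% ± 0.0533 in males (SD, n = 5; exact permutation p = 0.135, adjusted p = 0.270). The 22 tRNA genes together held 6245 reads in all 10 libraries, a mean share of 0.00125% ± 0.000199 in females and 0.00155% ± 0.000175 in males (SD, n = 5). By library it was 0.00153, 0.00129, 0.00123, 0.00119 and 0.000980% in females and 0.00146, 0.00148, 0.00186, 0.00143 and 0.00152% in males, with female replicate 1 among the males and the other females below them. This was the only one of the 6 measures with an unadjusted exact permutation p under 0.05 (p = 0.0397), and it did not pass adjustment (0.214). Its unadjusted p rose to between 0.0635 and 0.0873 without any one of female replicates 2, 3, 4 and 5 or male replicate 3. Over all 10 single omissions it ranged from 0.00794 to 0.0873. The smallest p that 5 libraries against 5 can give in this test is 0.00794.

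**Figure D1:**
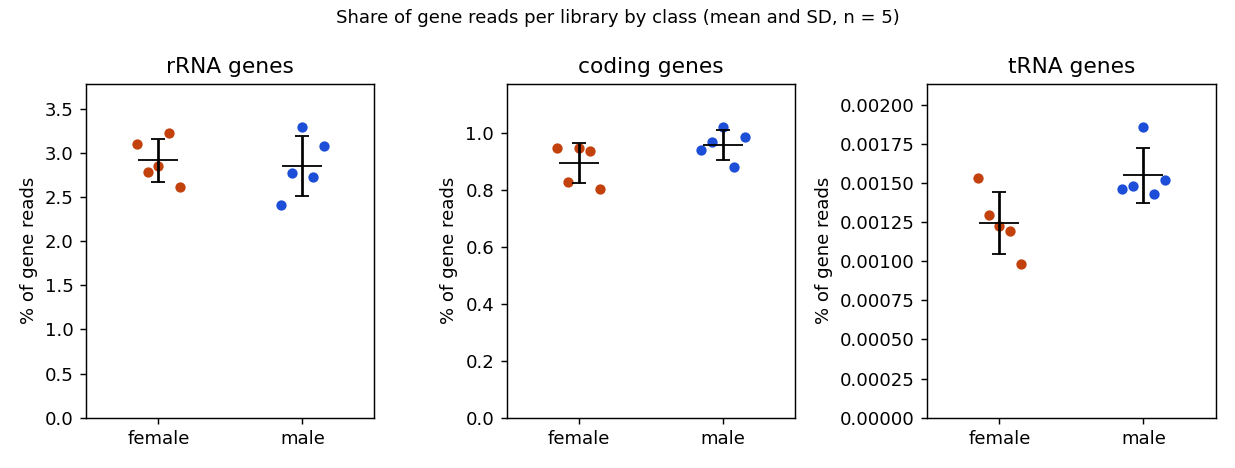
Share of gene reads (%, linear axes from 0) on rRNA, coding and tRNA genes of the mitochondrial genome, with 1 point per library and bars for the mean and SD of 5 female and 5 male libraries. The rRNA panel reaches 3.29%, the coding panel 1.02% and the tRNA panel 0.00186%, and the sexes overlap in each panel.

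The ribosomal pair had the highest levels of all 37 genes, and the ratio between its members differed from library to library. Levels are given per length as RPKM, reads scaled to the length of the gene and to the total gene reads of the library. mt-Rnr2 (chrM:1094-2675, 16S rRNA) was at 16516, 14972, 14374, 16769 and 13391 RPKM in females and 13260, 14884, 17825, 14756 and 15795 RPKM in males. mt-Rnr1 (chrM:70-1024, 12S rRNA) was at 5172, 4313, 6007, 6002 and 5181 RPKM in females and 3297, 4364, 4938, 4110 and 6046 RPKM in males. For 16S the female range lay within the male range, while for 12S male replicates 1 and 4 lay below all females and male replicate 5 above them. In edgeR's quasi-likelihood test the log2 fold change (female minus male) was 0.25 ± 0.14 (SE) for mt-Rnr1, with a Benjamini-Hochberg adjusted p of 0.964. Without male replicate 1 it was 0.14 and without male replicate 5 it was 0.38, with no call. For mt-Rnr2 it was 0.02 ± 0.10, with an adjusted edgeR p of 1.000 after rounding.

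The level of mt-Rnr2 over that of mt-Rnr1 was between 2.39 and 4.02 in the 10 libraries, although both rRNAs come from the same stretch of transcript with only mt-Tv between them. It averaged 2.89 ± 0.442 in females, against 3.45 ± 0.518 in males (SD, n = 5; exact permutation p = 0.103, adjusted over 3 ratios 0.310). The sexes overlapped: male replicate 5 at 2.61 lay below 3 of the females, and female replicate 2 at 3.47 lay above male replicate 2 at 3.41. Without male replicate 5 the difference was -0.771 with an unadjusted p of 0.0317. Over the 10 single omissions this p ranged from 0.0317 to 0.206. This ratio and the other ratios of neighbours below were chosen after the values had been seen. Across the 10 libraries mt-Rnr1 varied by 18.7% (coefficient of variation, CV) and mt-Rnr2 by 9.64%. Depletion acts on these RNAs before sequencing, so their level here is what the depletion left, and its part in the spread was not tested.

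**Figure D2:**
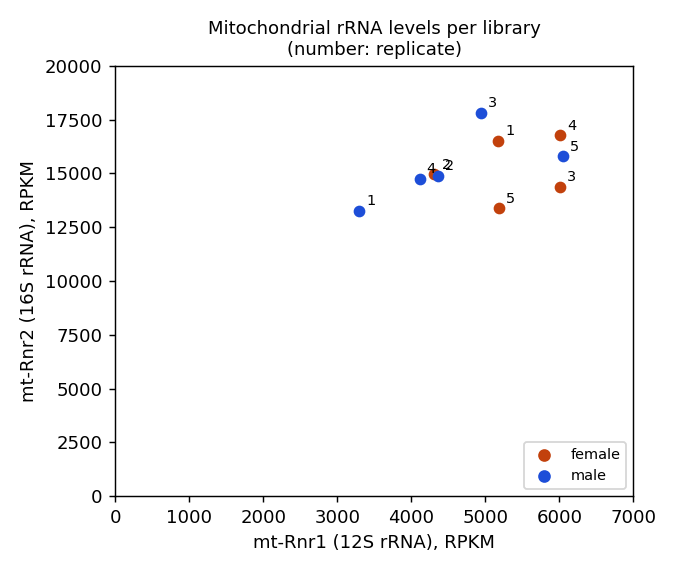
Level of mt-Rnr2 against that of mt-Rnr1 in each library (both in RPKM on linear axes from 0), with replicate numbers beside the points and colour for sex. Male replicate 1 has the lowest level of both (3297 and 13260 RPKM), and male replicate 3 has the highest mt-Rnr2 level (17825 RPKM) at a middle level of mt-Rnr1.

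Among the coding genes, levels differed by about an order of magnitude, with complex IV on top and complex I at the bottom. Averaged over 10 libraries, the 3 complex IV genes were at 1507 RPKM, the 2 ATP synthase genes at 820.0 RPKM, mt-Cytb of complex III at 721 RPKM and the 7 complex I genes at 420 RPKM. mt-Co1, the catalytic subunit of cytochrome c oxidase, was highest at 1626 ± 134 RPKM (SD, n = 10). mt-Co2 at 1529 ± 106 RPKM and mt-Co3 at 1366 ± 128 RPKM, the other core subunits of that enzyme, followed. mt-Atp6, a subunit of the proton channel of the ATP synthase, was at 1189 ± 67.9 RPKM. These 4 messengers stood apart from the rest, since each of them exceeded mt-Cytb at 721 ± 55.6 RPKM in all 10 libraries.

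Below them came mt-Nd1 at 694 ± 57.6, mt-Nd4l at 540 ± 49.9, mt-Nd5 at 515 ± 55.8 and mt-Atp8 at 451 ± 55.2 RPKM (SD, n = 10). mt-Nd4 at 417 ± 37.5, mt-Nd2 at 345 ± 34.3, mt-Nd6 at 293 ± 40.8 and mt-Nd3 at 134 ± 23.1 RPKM completed the order. All of these except mt-Atp8 encode membrane subunits of complex I, the entry point for electrons from NADH. Not every step in the order was resolved: mt-Co1 exceeded mt-Co2 in 8 of 10 libraries and mt-Cytb exceeded mt-Nd1 in 6. mt-Nd4l exceeded mt-Nd5, mt-Nd5 exceeded mt-Atp8 and mt-Atp8 exceeded mt-Nd4 in 9 libraries each. Every other step between neighbours in the order held in 10 of 10. The place of mt-Nd4l includes intron reads, 25.4% of its total, and the order was not computed without them. Genes copied in the same heavy-strand transcript thus had unequal levels, with the highest over the lowest at 9.99 to 15.6 in a library.

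**Figure D3:**
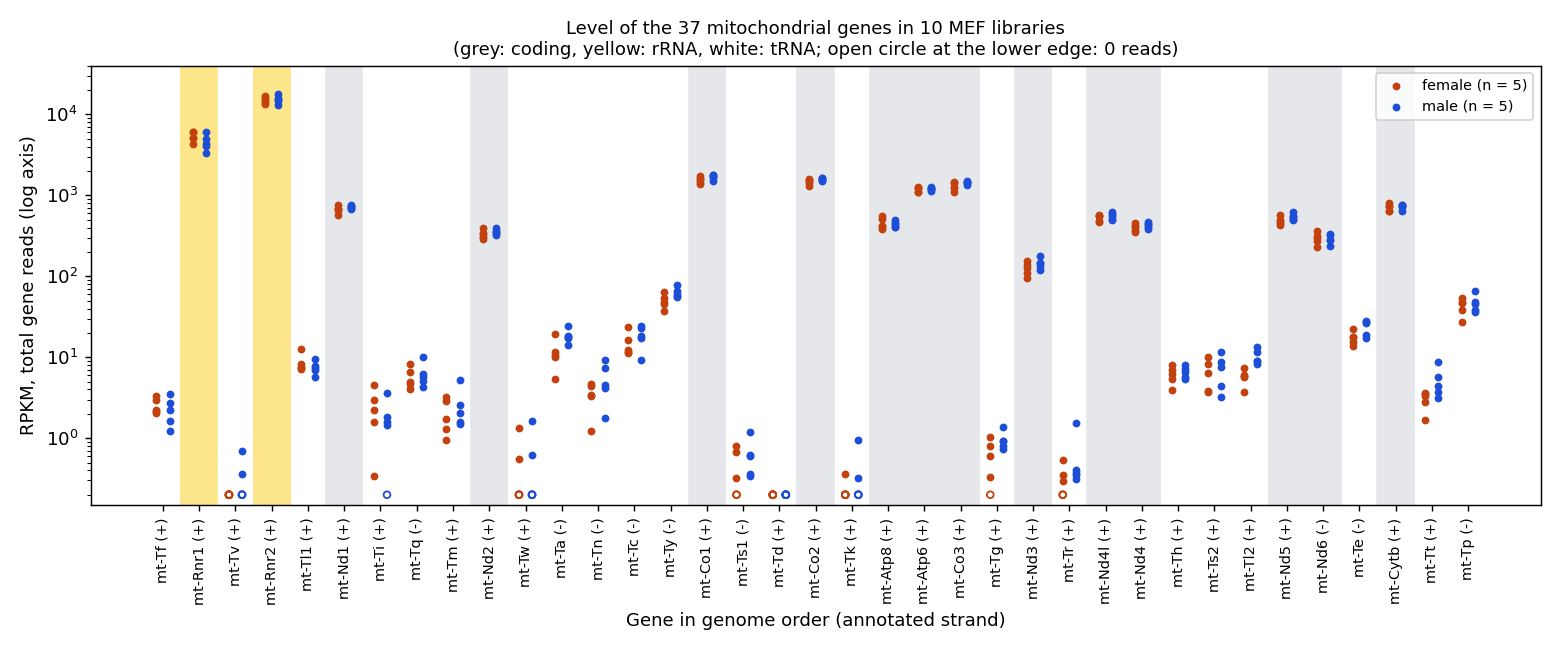
Level of all 37 genes (RPKM, log axis) in genome order with the annotated strand, 1 point per library, female left of male at each gene; shading marks coding and rRNA genes. The tRNA genes between the other genes are at most at 79.0 RPKM in any library, whereas the lowest coding level is 94.9 RPKM (mt-Nd3), and open circles at the lower edge are libraries with 0 reads.

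mt-Nd3, the shortest complex I gene after mt-Nd4l, was the lowest coding gene in every library. It was at 152, 111, 125, 136 and 94.9 RPKM in females and 135, 119, 144, 147 and 177 RPKM in males. The sexes overlapped, with female replicate 5 lowest and male replicate 5 highest. Its log2 fold change of -0.20 ± 0.13 (SE, edgeR, adjusted p = 0.987) was the furthest from 0 among the coding genes. It was -0.60 with unique gene reads, -0.71 with unique exon reads, and -0.11 without either female replicate 5 or male replicate 5, with no call. The unique gene reads of mt-Nd3 numbered only 428 in 10 libraries, 2.04% of its 20956 total reads. Its CV of 17.3% was also the largest among the coding genes.

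mt-Nd6 is the only coding gene of the light-strand transcript, and it was not the least abundant messenger. It was at 312, 299, 359, 229 and 275 RPKM in females and 239, 333, 326, 279 and 282 RPKM in males. The male range lay inside the female range. In each library its level was 0.373 to 0.572 of the median of the 12 heavy-strand coding genes. Its part of the coding reads averaged 1.72% ± 0.269 in females, against 1.58% ± 0.178 in males (SD, n = 5; exact permutation p = 0.349, adjusted p = 0.524). Without female replicate 4, which had the lowest share at 1.27%, the difference was 0.251 percentage points with an unadjusted p of 0.0476. Over the 10 single omissions this p ranged from 0.0476 to 0.635. The library kit marks strand, but whether the counting used it is not given in the sources used here. If it did not, reads of the heavy-strand transcript across mt-Nd6 would be counted with its own. The table places 18.5% of mt-Nd6 reads in introns, while its only exon covers the whole span.

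By total reads the overlapping pairs, which leave the primary transcript as joint messengers, had unequal levels too. mt-Atp8, a small stabilising subunit of the ATP synthase, was at 505, 419, 564, 417 and 389 RPKM in females and 407, 446, 458, 407 and 496 RPKM in males. mt-Atp6 was at 1258, 1088, 1221, 1226 and 1087 RPKM in females and 1200, 1193, 1226, 1119 and 1274 RPKM in males. The level of mt-Atp8 was below that of mt-Atp6 in every library, at 0.389 ± 0.0468 of it in females and 0.368 ± 0.0185 in males (SD, n = 5; exact permutation p = 0.437). For the other pair the upstream gene was the higher one: mt-Nd4l over mt-Nd4 averaged 1.31 ± 0.0445 in females, against 1.29 ± 0.0484 in males (SD, n = 5; exact permutation p = 0.444). It lay between 1.23 and 1.37 in all libraries, a CV of 3.51%, with 25.4% of mt-Nd4l reads and 1.43% of mt-Nd4 reads counted as intron reads. Both levels include these intron reads, whose share in mt-Nd4l is about as large as its excess over mt-Nd4. The order of this pair therefore depends on whether intron reads are counted. With unique reads both orders turned: mt-Atp8 was at 534 RPKM and mt-Atp6 at 5.12, and mt-Nd4l was at 5.24 RPKM and mt-Nd4 at 232. mt-Atp6 and mt-Nd4l had few unique reads, at 0.362% and 0.816% of their total reads. Reads in the 43 and 7 shared bases printed above cannot be assigned to either gene, and how they were counted is not given in the sources used here.

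Several coding genes have copies in the nuclear genome, and for some of them the deposited unique reads nearly vanished. Unique is taken here as mapping to 1 place. Whether that means 1 place in the genome or 1 annotated gene is not given in the sources used here. Of total reads in 10 libraries, 0.179% were unique for mt-Co2, 0.292% for mt-Co3, 0.362% for mt-Atp6, 0.816% for mt-Nd4l and 2.04% for mt-Nd3. For mt-Nd4 the share was 46.8%, for mt-Co1 62.5% and for mt-Nd5 96.9%. Each of the remaining coding genes had at least 99.3% unique reads, and the rRNA and tRNA genes with reads had 100%. In a search of the annotated mouse transcripts, with matches on a single autosome left out, 7 coding genes had a nuclear copy of at least 99% identity. These matches covered 100 bases or more. All 7 copies lie in a row on chromosome 1, minus strand, at chr1:24611535-24616197, a span of 4663 bases. In it Gm28439 matches mt-Nd4, Gm10222 mt-Nd4l, Gm28437 mt-Co3, Gm10925 mt-Atp6 and Gm28661 mt-Co2 at 100% over 876, 294, 783, 678 and 681 bases. Gm28438 matches mt-Nd3 at 99.7% and Gm29216 matches 483 bases of mt-Co1 at 99.8%, with the 1 differing base each that is printed above.

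These 7 copies held 31 total reads in all 10 libraries, whereas mt-Co2 held 471124 and mt-Co3 480219. Where a read fits both places exactly, the table cannot show which it came from. mt-Atp8 lies between mt-Co2 and mt-Atp6 and kept 99.6% unique reads. At that place in the row on chromosome 1 lies a gap of 233 bases with no annotated copy. On the mitochondrial genome mt-Co2 ends at base 7696 and mt-Atp6 starts at base 7927, so the gap has about the length of the stretch between them. Only annotated transcripts were searched, so whether the gap holds unannotated mt-Atp8 sequence was not tested. Windows of 50 bases were compared with the annotated nuclear transcripts as well: 100% of those in mt-Co2 occur in an annotated nuclear transcript, 99.9% in mt-Co3, 99.5% in mt-Atp6, 98.8% in mt-Nd4l and 98.0% in mt-Nd3. The share was 62.2% in mt-Nd4, 51.1% in mt-Co1, 8.19% in mt-Nd2, 7.61% in mt-Nd5 and 0 in the other coding genes. Unlike the list of copies, this comparison left out no autosome and no match under 100 bases. Counted by unique reads, mt-Co2, mt-Co3 and mt-Atp6 fell to places 12, 11 and 10 of 13 in the order of levels, at 3.28, 4.77 and 5.12 RPKM. Spearman's rho between the coding levels by total and by unique reads was 0.15 over the 13 genes, given as a description with no test.

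**Figure D4:**
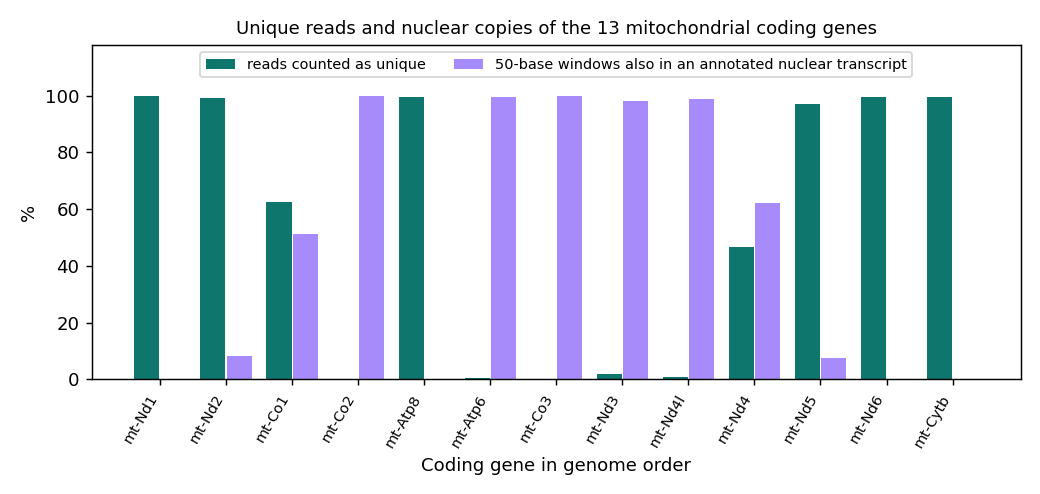
For each coding gene in genome order, the share of its reads counted as unique (over 10 libraries) and the share of its 50-base windows that also occur in an annotated nuclear transcript, both in %. The unique share is 2.04% or less for the 5 genes whose windows are shared at 98.0% or more, and at least 96.9% for the 6 genes whose windows are shared at 8.19% or less.

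The tRNA genes were low and very uneven, and most of their reads lay on light-strand genes. The 8 light-strand genes averaged 20.6 RPKM and the 14 heavy-strand genes 2.98 RPKM over the 10 libraries, although both rRNA genes and 12 of the 13 coding genes belong to the heavy strand. In each library 77.0 to 82.1% of tRNA reads fell on the light-strand genes, and their mean level was 5.84 to 8.04 times that of the heavy-strand genes. The 5 highest tRNA genes were all on the light strand and held 71.2 to 77.99% of tRNA reads: mt-Ty at 56.8, mt-Tp at 45.0, mt-Te at 20.5, mt-Tc at 16.7 and mt-Ta at 14.8 RPKM. mt-Tc, mt-Ty and mt-Ta are neighbours in a cluster of light-strand tRNA genes between mt-Nd2 and mt-Co1. mt-Tn, the fourth of that cluster, was at 4.42 RPKM, and mt-Ts1 on the same strand at 0.492 RPKM.

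On the heavy strand the highest were mt-Tl1 at 8.01 and mt-Tl2 at 7.97 RPKM. mt-Td had 0 reads in all 10 libraries, where a count of 0 allows up to 3 reads per library. mt-Tv, between the 2 rRNA genes, had 3 reads in 10 libraries, mt-Tk had 5 and 7 tRNA genes had under 30. Coding levels averaged 66.2 to 99.5 times tRNA levels in a library. Mature tRNAs are short and heavily modified and are poorly recovered by standard libraries. The table does not separate reads of mature tRNAs from reads of longer RNAs that run across the gene, and the doubt on strand given for mt-Nd6 holds for all light-strand tRNA genes.

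The coding genes varied less between libraries when set against each other than when set against all reads. Their CV of RPKM over 10 libraries had a median of 9.22%, from 5.71% for mt-Atp6 to 17.3% for mt-Nd3, against 6.85% (quartiles 5.11 and 9.68%) for 3883 tested nuclear genes at least as abundant as mt-Nd3. Taken as a share of coding reads alone, the median CV was 4.56%, from 2.24% for mt-Co2 to 13.8% for mt-Nd6. mt-Co1 held 25.7 to 28.7% of coding reads in every library. mt-Nd6, mt-Nd3 and mt-Atp8 kept CVs of 13.8, 13.6 and 10.1% on that scale, the only ones above 6%. mt-Nd4l, which is shorter than mt-Nd3, had a CV of 4.09% on it. For mt-Nd6 the CV against all reads was nearly the same, at 13.9%. Each coding gene is part of the coding total, which can itself lower the CV, and no nuclear gene set was scaled in that way. These figures are a description and were not tested.

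No mitochondrial gene differed between female and male cells at an adjusted p under 0.05. edgeR's quasi-likelihood test with Benjamini-Hochberg adjustment ran on all 17932 genes that passed a filter on low counts, and called 16 of them (0.0892%). Of the 37 mitochondrial genes, 27 passed the filter: all 13 coding genes, both rRNA genes and 12 of 22 tRNA genes. None was called, and DESeq2, which called 0.469% of all genes with an adjusted p, called 0 of the 27 as well. In edgeR an unadjusted p under 0.05 was reached by 2 of the 27, mt-Tl2 and mt-Ta, and by 5.43% of all tested genes. In DESeq2 it was reached by 4 of the 27 and by 5.77% of all genes tested. Among the 13 coding genes the median log2 fold change was -0.07, from -0.20 (mt-Nd3) to 0.08 (mt-Atp8), beside a median of 0.0050 over all tested genes. Of the 27, 22 had a log2 fold change below 0, where 47.9% of all tested genes did. The members were measured in the same libraries, so their signs are not independent of each other.

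mt-Tl2, a leucine tRNA printed above, was the one tested member whose libraries did not overlap. It had 18, 21, 23, 22 and 12 reads in female libraries and 33, 30, 34, 25 and 31 reads in male libraries, or 5.67, 6.00, 5.93, 7.29 and 3.70 RPKM in females and 11.7, 8.92, 13.2, 8.32 and 9.04 RPKM in males. Every male library was above every female library, a pattern found, higher in males, in 179 of the tested genes (0.998%). The log2 fold change was -0.80 ± 0.24 (SE), with an unadjusted edgeR p of 0.00500 and a Benjamini-Hochberg adjusted p of 0.592. The adjusted p ranged from 0.396 to 1.000, after rounding, when each library was left out in turn.

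Other tRNA genes also had negative fold changes without passing. mt-Ta, for alanine, was at 19.1, 11.5, 10.1, 10.6 and 5.39 RPKM in females and 24.0, 18.1, 17.2, 14.04 and 17.7 RPKM in males, with female replicate 1 above 4 of the males. Its log2 fold change was -0.65 ± 0.28 (SE, edgeR, adjusted p = 0.866). mt-Tt, for threonine, was at -0.71 ± 0.34 (-0.46 without male replicate 3), mt-Te, for glutamate, at -0.42 ± 0.19 and mt-Ty at -0.33 ± 0.16, with adjusted edgeR p of 0.939, 0.920 and 0.939. Of the 12 tested tRNA genes 11 had a negative log2 fold change, mt-Tl1 being the exception at 0.23 ± 0.25. In the authors' deposited table, the smallest false discovery rate among the 37 genes was 0.378, for mt-Tl2 at a signed fold of -1.73, where a negative sign means lower in females. In the authors' deposited table no mitochondrial gene had a false discovery rate under 0.05.

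**Figure D5:**
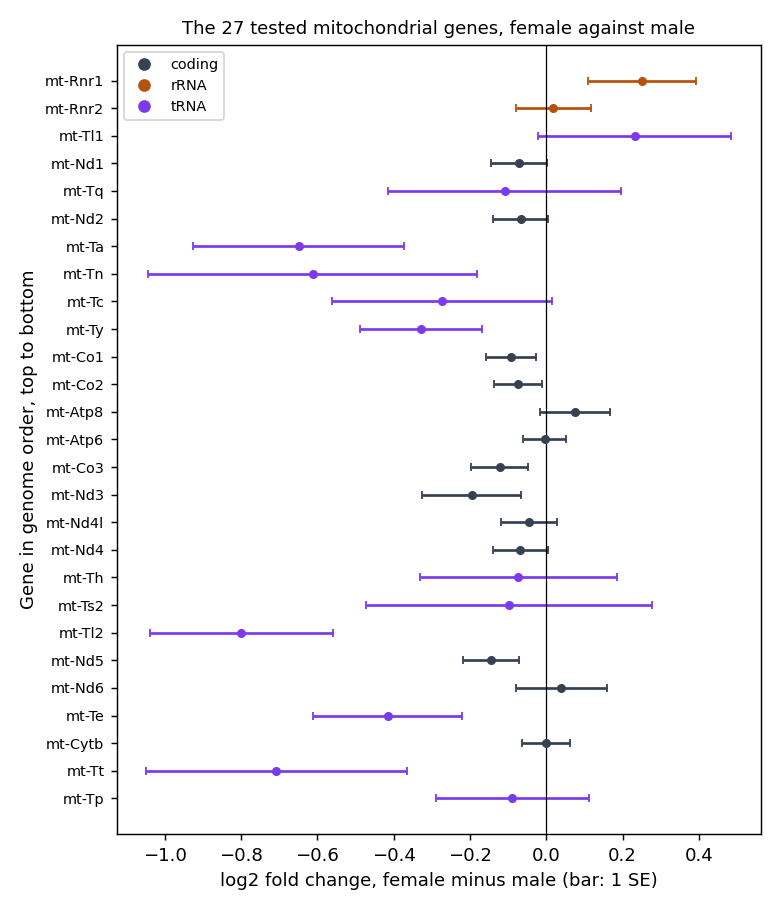
log2 fold change (female minus male, edgeR) of the 27 tested mitochondrial genes in genome order, with bars of 1 standard error and colour for the class. Coding genes lie between -0.20 and 0.08, and the tRNA genes reach -0.80 (mt-Tl2) with wider bars.

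The coding share was set beside 4 measures of the libraries, each over 10 libraries with 100000 random pairings. Against the share of reads on Gm26917, an annotation known to collect cytosolic rRNA reads, Pearson's r was -0.68 (permutation p = 0.0317, adjusted over 4 relations 0.127) and Spearman's rho -0.53 (permutation p = 0.124, adjusted 0.247). It was -0.65 without the 2 libraries farthest from the median of Gm26917, and -0.65 after centring each sex. Gm26917 held 7.61% ± 0.804 of the reads of female libraries and 7.29% ± 0.372 of those of male libraries (SD, n = 5), and both shares have the same denominator. Against the mitochondrial rRNA share, r was 0.56 (permutation p = 0.0956) and rho 0.54 (0.114), with r at 0.42 without the 2 farthest libraries and 0.72 after centring. Against total gene reads r was -0.25 (permutation p = 0.492) and rho -0.07 (0.865), and against the intron share of reads r was 0.03 (permutation p = 0.925) and rho -0.09 (0.812). None passed adjustment, and with 5 libraries a sex is too small for an r of its own.

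Nuclear genes that maintain and transcribe the mitochondrial genome, process and translate its RNA, or regulate mitochondrial biogenesis were measured in the same libraries. Of 56 such genes in 4 lists, all passed the filter and 0 were called between the sexes by edgeR or DESeq2. One reached an unadjusted edgeR p under 0.05, Ptcd3, a protein of the mitochondrial ribosome, at 53.9 ± 3.06 CPM in females and 59.5 ± 4.61 CPM in males (SD, n = 5). Its log2 fold change was -0.11 ± 0.05 (SE, edgeR, adjusted p = 0.911). By list, 10 of 16 genes of genome maintenance and transcription had a positive log2 fold change, as did 10 of 22 of RNA processing and stability, 4 of 10 translation factors and 5 of 8 regulators of biogenesis. The list medians were 0.02, -0.01, -0.01 and 0.05, beside 0.0050 over all tested genes.

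The members with the smallest p in each list also stayed short of a call. Ssbp1, which coats single-stranded mitochondrial DNA, was at 0.08 ± 0.08 (log2 fold change and SE) and Mterf1b, a termination factor homolog, at -0.29 ± 0.29. Fastkd1, of a family that handles mitochondrial messengers, was at -0.25 ± 0.12. Among translation factors Gfm2, which recycles the ribosome, was at -0.12 ± 0.07 and Mtrf1, a release factor, at -0.21 ± 0.14. Of the coactivators of biogenesis, Ppargc1a was at -0.43 ± 0.27 and Ppargc1b at 0.21 ± 0.17. Single libraries moved several of these: Ppargc1b was at 0.034 without female replicate 5, Ppargc1a at -0.67 without female replicate 3, and Mterf1b at -0.14 without female replicate 5, -0.10 without male replicate 3 and -0.45 without male replicate 4. Ppargc1a was scarce, at 0.738 ± 0.291 CPM in females and 1.02 ± 0.256 CPM in males. Tfam, which packs the mitochondrial genome and starts its transcription, was at 15.98 ± 0.844 CPM in females and 15.7 ± 1.34 CPM in males (SD, n = 5). Polrmt, the polymerase that copies it, was at 21.3 ± 1.69 CPM in females and 22.9 ± 2.33 CPM in males.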

How the data were processed

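The authors deposited whole-number read counts per gene and library, not normalized, per the file headers. Total reads were taken to include those that map to more than 1 place, and unique reads were not. The headers do not say how such reads were handled. The build was mm10, per the submitters' processing notes. How reads were aligned and counted, and whether by strand, is not given in the sources used here. Per the file headers, the authors' own EDGE test gave each gene a p-value with its false discovery rate and a signed fold, used here as a score. Unused were 110 further columns.

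Total gene reads were used because many mitochondrial reads also fit nuclear copies. Unique gene reads numbered 30662616 to 45859721 per library. The 24 rRNA and tRNA genes have no annotated exon, so lengths for RPKM are gene spans, which equal those of GENCODE M21 for all 37 genes. The robust quasi-likelihood test of edgeR 4.0.16 (R 4.3.3) compared the sexes in a model without other terms, after filterByExpr (minimum count 10) and TMM scaling. Benjamini-Hochberg adjustment covered all 17932 tested genes, with calls at 0.05. The test was checked on simulated counts, with 200 genes off the mitochondrial genome changed. It recovered 30.0% of genes changed 1.25-fold, 80.0% at 1.5-fold, 92.0% at 2-fold and 100% at 4-fold, from 50 genes each. Unchanged genes made up 7.36% of its 163 calls. Shares and ratios had two-sided exact permutation tests (Python 3.11.15, scipy 1.17.1) and Wilson intervals at 95%. Nuclear copies were sought with blastn 2.17.0 among GENCODE M21 transcripts, at 80% identity or more over at least 100 bases. Matches on a single autosome were left out of the copies counted.

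Alternatives were DESeq2 1.42.0, its size factors, scaling from genes off the mitochondrial genome, no filter, unique gene or exon reads, the replicate number as a block, leaving out each library and, added later, counts without Gm26917 and CT010467.1. Same-sex libraries differed by more than sampling noise (chi-square over its degrees of freedom at least 15.7). Given in full were the rRNA genes, the overlapping pairs, mt-Nd6, mt-Co1, members with the highest or lowest level or the smallest p, and 2 genes of smallest p per nuclear list; Tfam and Polrmt were added for their role. The members and lists were chosen with earlier results of these data known.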

Additional observations from a re-analysis of the deposited data

Results flagged for a closer look

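Dixon's test at the 95% level was run on 72 sets of 5 same-sex libraries, covering levels of single genes and class shares. It picked out a lone library in 2 of them, where chance gives about 1 in 20, or 3.6. mt-Tl1, a leucine tRNA gene, was at 12.7 RPKM in female replicate 2 against 7.16 to 8.15 RPKM in the other females. The share of gene reads on the tRNA genes was 0.00186% in male replicate 3, the shallowest library, against 0.00143 to 0.00152% in the other males.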

How the results depend on the processing

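No mitochondrial gene and no gene of the 4 nuclear lists was called under any alternative run; the smallest adjusted p of a mitochondrial gene was 0.318 (DESeq2). Over all genes the 16 calls became 29 with no filter, 84 with DESeq2, 24 with the replicate block and 11 to 27 with 1 library left out (27 without male replicate 1). Replicate numbers gave no clear pairing of the samples: same-number correlations were 0.0115 to 0.225, and 2 of 5 numbers matched best. These values cannot exclude a pairing by number. The difference in the mitochondrial share (percentage points) became 0.0584 with unique reads and 0.00772 without Gm26917 and CT010467.1, and with 1 library left out it ranged from -0.123 to 0.118. Left-out ranges were -0.0516 to 0.168 for the rRNA share, -0.000376 to -0.000227 for the tRNA share, 0.0750 to 0.251 for the mt-Nd6 share and 1.09 to 2.18 for the rRNA share of mitochondrial reads. They were -0.771 to -0.418 for mt-Rnr2 over mt-Rnr1 and, as log2 fold changes, -0.040 to 0.073 for mt-Rnr2, -0.035 to 0.12 for mt-Nd6 and -0.031 to 0.026 for mt-Atp6. The difference in mt-Nd4l over mt-Nd4 was 0.0237 with total reads, -0.000333 with unique gene reads and -0.000201 with unique exon reads. For mt-Atp8 over mt-Atp6 it was 0.0212 with total reads, 6.21 with unique gene reads and 8.62 with unique exon reads. With total reads it was 0.00314 without female replicate 3. These differences cannot be compared across kinds of reads, because the ratios themselves changed in size. By unique gene reads mt-Atp8 was at 534 RPKM and mt-Atp6 at 5.12, and mt-Nd4l was at 5.24 RPKM and mt-Nd4 at 232. Left-out log2 ranges were 0.14 to 0.38 for mt-Rnr1, 0.0094 (without female replicate 3) to 0.13 for mt-Atp8 and -0.28 to -0.11 for mt-Nd3. The causes were not tested. Exon reads give no value for rRNA and tRNA genes, which have no annotated exon. Counts under 30 reads limit the tRNA genes.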

Other observations

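mt-Nd4l and mt-Nd6 had many reads counted outside their annotated exon, although each coding gene is annotated as 1 exon over its whole span. Over 10 libraries 25.4% of total reads of mt-Nd4l and 18.5% of those of mt-Nd6 were counted as intron reads. The share was 3.99% for mt-Nd3, 1.43% for mt-Nd4, 1.05% for mt-Co1 and 0.0734 to 0.774% for the other 8 coding genes.

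The search counted 27 annotated nuclear copies of at least 80% identity over 100 bases or more, with matches on a single autosome left out. Of these, 26 are pseudogenes. The other, Gm20594, is annotated as protein coding and matches mt-Rnr2 at 88.5% over 435 bases. It held 6238 of the 6668 total reads on these 27 copies.

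Taco1, an activator of mt-Co1 translation, was at 1481 ± 147 CPM in females and 1403 ± 52.1 CPM in males (SD, n = 5), against 0.621 to 100.4 CPM for the other 55 genes of the nuclear lists. Of its reads 99.7% were counted as intron reads. These genes were picked after their values were seen.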
